A study of Mus musculus with 34 samples.

Results

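The sites described here were distal enhancer regions of mouse dendritic cells that carried the active mark H3K27ac before stimulation and gained a peak of the NF-κB subunit p65 (RelA) after lipopolysaccharide (LPS). They were 2246 (41.1%) of the 5465 p65 peaks listed for LPS-treated CTCF-WT cells. The members were selected on 3 measured lists: each was a p65 peak of the WTLPS list, shared no base with a p65 peak of the WT list, and shared at least 1 base with an H3K27ac peak of the WT list. Each also lay outside promoters, taken as 2.5 kb either side of the start of each gene's longest annotated transcript. The presence of p65 in WTLPS, its absence in WT and the presence of H3K27ac in WT are therefore the definition of the members and not results.

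The cells were bone marrow-derived dendritic cells (BMDCs) of C57BL/6 mice, aged 8 weeks by the labels, grown for 6 days in GM-CSF. Both genotypes carried the tamoxifen-inducible recombinase CreER, expressed from the Rosa26 locus. Both also received 4-OH tamoxifen, on the first day of culture only. CreER cells are called CTCF-WT, and CreER;CTCF fl/fl cells, in which both Ctcf copies are flanked by loxP sites, are called CTCF-KO. Each genotype was left unstimulated (WT and KO) or received LPS at 100 ng/ml for 3 h (WTLPS and KOLPS), and chromatin immunoprecipitation with sequencing (ChIP-seq) gave a list of peaks for each antibody and condition. STAT5 was profiled in WT and KO only, after renewed GM-CSF for 15 min. Recombination in such cultures can leave cells with intact Ctcf, so the KO lists describe a population and not a uniform null. Per the study's methods the cells were selected for the dendritic cell surface protein CD11c with magnetic beads before LPS. The lists describe such populations in bulk, so fewer cells with a bound site cannot be told apart from less binding per cell.

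NF-κB dimers with p65 are kept in the cytoplasm of resting cells by IκB proteins and enter the nucleus when Toll-like receptor 4 senses LPS. They bind short κB sequences, mostly in enhancers that lineage factors such as PU.1, C/EBP and AP-1 proteins have opened beforehand. H3K4me1 marks enhancers in general and H3K27ac the active ones. Cohesin, the ring complex of which SMC1 is a subunit, extrudes chromatin loops that CTCF stops at its sites, and cohesin is also loaded at active enhancers that lack CTCF. STAT5 is the factor that the GM-CSF receptor activates through JAK2.

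Each antibody and condition had 1 list, so no difference below has a replicate check and no test was possible. A share of members is given with its 95% Wilson interval, and a difference of shares with the interval that follows from the members that changed. Both cover counting error only, and members that lie in the same enhancer are not independent. The 4 p65 lists, in the order WT, WTLPS, KO and KOLPS used throughout, held 781, 5465, 504 and 1752 peaks, with backgrounds of 0.710, 0.860, 0.710 and 0.820 fragments per base recovered from the deposited values, and their lowest −log10 p differed, at 6.05, 4.35, 5.46 and 5.39. The starts of all 10 genes fixed as dendritic and myeloid markers, among them Spi1, Itgax and Cd74, had an H3K4me3 peak in each of the 4 conditions. So did 1 of 5 T cell genes (Lck), 1 of 5 B cell genes (Pax5) and the erythroid genes Klf1 and Epor, and of 5 liver genes none did in WT.

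Of the 5465 WTLPS p65 peaks, 726 were overlapped by a WT p65 peak and 884 of the others lay at a promoter. The remaining 3855 distal induced peaks split into the 2246 members (58.3%), 686 with H3K27ac in WTLPS but not in WT (called LPS-acetylated), and 923 without H3K27ac in either. The H3K27ac limit was soft at its edge. For 173 members the shared stretch was under 50 bp, while 465 of the distal induced peaks that were not members lay within 500 bp of a WT H3K27ac peak. An SMC1 peak of WTLPS lay at 93.6% of the former and 91.0% of the latter, and a WT SMC1 peak at 79.2% and 72.3%. The p65 summit itself was inside the WT H3K27ac peak for 1663 members (74.0%). H3K4me1 was not used by the rule. A WT H3K4me1 peak overlapped 2180 members (97.1%, 96.3 to 97.7%), against a background of 89.1% of all WTLPS p65 peaks, promoter peaks included. These H3K4me1 peaks were broad, with a median of 10450.5 bp at members, so the overlap cannot tell enhancers from promoters. A WT peak of the promoter mark H3K4me3 overlapped 413 members (18.4%), so the name enhancer is uncertain for part of the set.

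Sequences of 101 bp around the p65 summits of 8 named members show the kinds of site in the set. All are the plus strand of GRCm38, read from the RefSeq genome. In the first 5, capitals mark matches to the κB consensus on either strand. They come from the strongest member with such a match and from members near genes of NF-κB signalling and of the LPS response.
Slco3a1 intron, chr7:74527845-74527945: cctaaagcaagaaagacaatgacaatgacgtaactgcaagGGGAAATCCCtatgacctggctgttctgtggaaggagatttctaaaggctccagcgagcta
Strongest member within 100 kb of Ccl3, chr11:83737424-83737524: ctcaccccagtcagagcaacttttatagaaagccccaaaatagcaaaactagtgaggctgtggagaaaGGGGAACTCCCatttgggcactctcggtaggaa
Nfkb1 intron, chr3:135640313-135640413: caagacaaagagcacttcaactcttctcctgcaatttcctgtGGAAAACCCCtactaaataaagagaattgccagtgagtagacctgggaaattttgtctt
Near Il6, chr5:29920346-29920446: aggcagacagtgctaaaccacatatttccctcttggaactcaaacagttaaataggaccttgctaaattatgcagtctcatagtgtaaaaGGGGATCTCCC
Near Nos2, chr11:78887180-78887280: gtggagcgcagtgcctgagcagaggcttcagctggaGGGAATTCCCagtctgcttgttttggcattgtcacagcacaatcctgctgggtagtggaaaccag
In the next windows, both at a WT and a KO STAT5 peak, capitals mark TTCNNNGAA, the STAT consensus. They stand for the members that STAT5 also occupied.
Near Nfkbia, chr12:55465028-55465128: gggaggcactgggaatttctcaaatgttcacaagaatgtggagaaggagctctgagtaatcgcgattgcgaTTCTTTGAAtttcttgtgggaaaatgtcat
Lims1 intron, chr10:58382095-58382195: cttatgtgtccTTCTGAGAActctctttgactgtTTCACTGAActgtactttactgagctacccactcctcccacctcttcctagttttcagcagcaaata
In the last, the strongest member near the Cxcl3 and Cxcl5 chemokine genes, capitals mark TGANTCA, the AP-1 consensus.
Near Cxcl5, chr5:90715836-90715936: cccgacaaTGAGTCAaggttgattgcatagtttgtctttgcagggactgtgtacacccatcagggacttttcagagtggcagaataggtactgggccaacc

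The members spanned a wide range of p65 enrichment. Their fold over background in WTLPS ran from 3.66 to 48.5 with a median of 7.01, and their −log10 q from 1.36 to 139 with a median of 7.32. The median fold was 7.55 at the LPS-acetylated sites and 5.93 at the sites without H3K27ac, and 7.01 over all WTLPS p65 peaks. Members were 201 to 2093 bp wide, with a median of 340.0 bp. Only 741 members reached a −log10 q of 10.

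SMC1 was the factor most often found with p65 at the members. In CTCF-WT cells an SMC1 peak overlapped 1900 members before LPS (84.6%, 83.0 to 86.0%) and 2155 after it (95.9%, 95.1 to 96.7%). In CTCF-KO cells it overlapped 1804 before (80.3%, 78.6 to 81.9%) and 1732 after (77.1%, 75.3 to 78.8%). Over all WTLPS p65 peaks, the background was 72.4% and 88.0% in CTCF-WT and 66.8% and 65.2% in CTCF-KO. Cohesin thus lay at most members in cells without LPS, and the share was highest after LPS in CTCF-WT cells. It was lower at the other distal induced sites in each condition, at 52.0%, 87.2%, 41.8% and 46.9% of the LPS-acetylated sites and at 39.7%, 59.7%, 34.0% and 32.1% of the sites without H3K27ac.

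**Figure D1:**
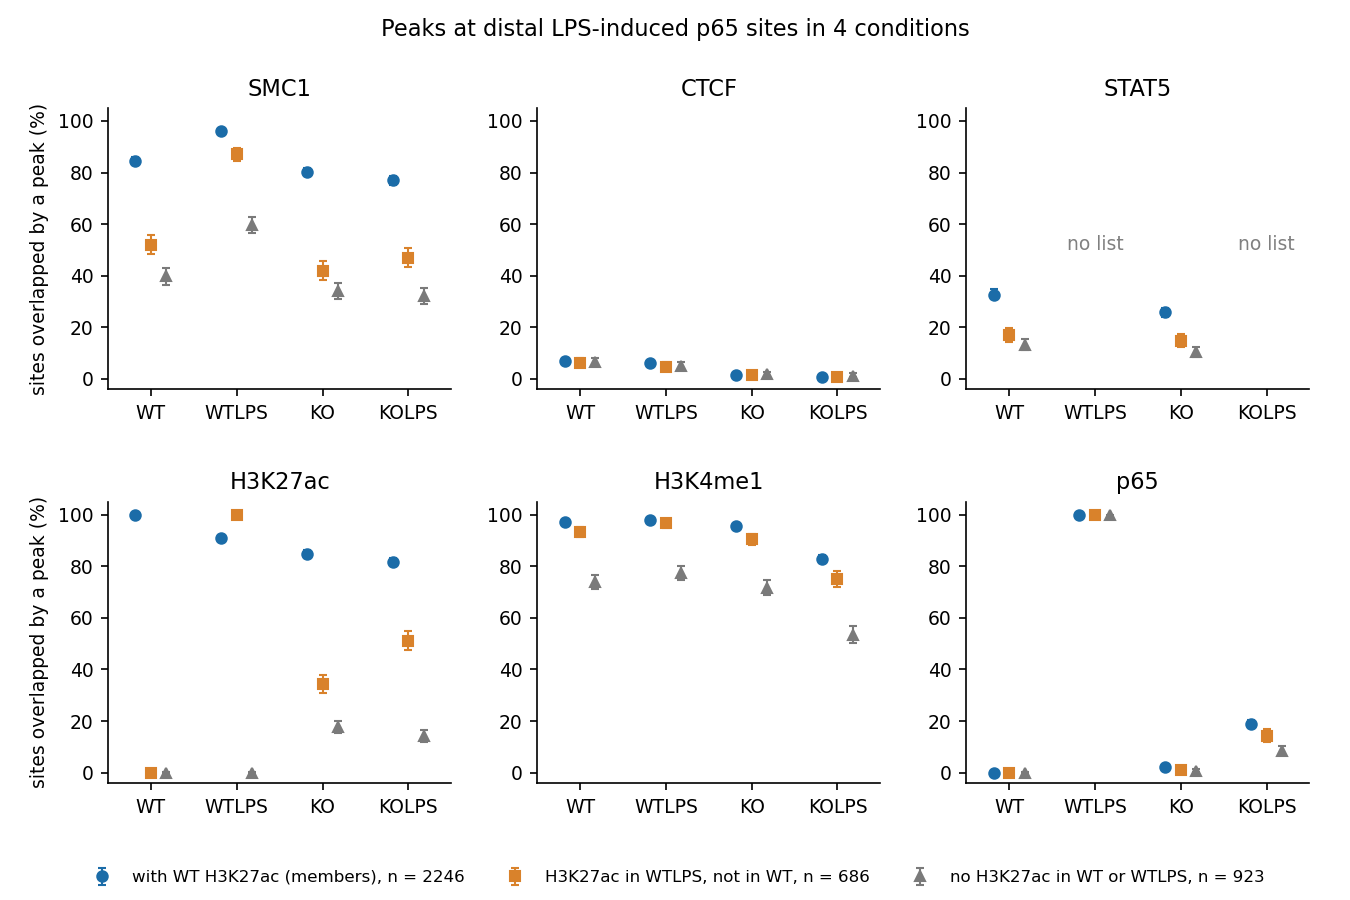
Share of distal LPS-induced p65 sites overlapped by a peak (y axis, percent) in each condition (x axis), with 95% Wilson intervals. Circles are the 2246 members, squares the 686 LPS-acetylated sites and triangles the 923 sites without H3K27ac; p65 in WT and WTLPS and H3K27ac in WT and WTLPS defined these classes. SMC1 lay at 77.1 to 95.9% of members, and CTCF at 0.712 to 7.08%.

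In CTCF-WT cells, LPS added SMC1 at 264 members and took it from 9, a rise of 11.4 points (9.99 to 12.7). In CTCF-KO cells, it added SMC1 at 136 and took it from 208, a change of -3.21 points (-4.82 to -1.59). The changes over all WTLPS p65 peaks, members included, were 15.6 and -1.67 points. Over the p65 peaks that were not members they were 18.6 (17.2 to 20.0) and -0.590 (-1.94 to 0.764) points. In CTCF-KO cells the change was 5.10 points (1.88 to 8.32) at the LPS-acetylated sites. It was -1.95 points (-4.27 to 0.373) at the sites without H3K27ac. The rise in CTCF-WT was thus shared with other p65 peaks, while the LPS-acetylated sites moved the other way in CTCF-KO. The KO library was the deeper of the KO pair, with 5.34 against 4.49 fragments per base, and WTLPS had 5.76. By calculation, KO peaks thinned to the KOLPS coverage would leave 76.3% of members with SMC1 and WTLPS peaks 94.0%, beside the 77.1% listed in KOLPS. The calculation takes the enrichment of the immunoprecipitations as equal, and the part of depth in these differences was not tested.

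Between WTLPS and KOLPS, 433 members lost SMC1 and 10 gained it, a difference of -18.8 points (-20.5 to -17.2), against -22.8 points over all WTLPS p65 peaks. The direction of that difference depended on how lists of unequal length were compared. The lists of the 4 conditions held 63638, 57354, 29965 and 17241 SMC1 peaks. When each was limited to its strongest 17241 peaks, the members' shares were 35.7%, 56.8%, 70.5% and 77.1%, and the KOLPS share exceeded the WTLPS share by 20.3 points. By presence, fewer members held SMC1 in CTCF-KO cells, while by rank they stood higher within the shorter lists of those cells. The median member SMC1 peak stood at percentiles 68.8, 74.2, 84.8 and 79.2 of the 4 lists by strength. For all WTLPS p65 peaks these medians were 67.7, 72.5, 84.8 and 79.2.

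In all 4 conditions 1555 members (69.2%) had SMC1, and 72 (3.21%) had it in none. It was listed in WTLPS alone at 144 (6.41%). A KOLPS p65 peak lay at 24.1% of the members with SMC1 in all 4 conditions, 2.78% of those with it in WTLPS alone and 1.39% of those without it, and a κB match at 10.3%, 16.7% and 20.8%. The 264 members that gained SMC1 with LPS in CTCF-WT cells had lower-ranked SMC1 and WT H3K27ac peaks than the 1900 that had SMC1 before. Their median SMC1 percentile in WTLPS was 48.1 against 76.8, and their median H3K27ac percentile in WT 73.4 against 92.7. Their median p65 fold was not lower, at 7.55 against 7.01. They were picked for lacking SMC1 in WT. A lower SMC1 rank in WTLPS and lower SMC1 shares in KO and KOLPS are therefore in part given by that choice. The split was made among members only. Of the gaining members 22.0% (17.4 to 27.3%) had SMC1 in KO and 36.7% (31.2 to 42.7%) in KOLPS, against 91.6% (90.2 to 92.7%) and 85.7% (84.1 to 87.2%) of the others. A WT STAT5 peak lay at 12.5% (9.04 to 17.0%) of the gaining members and 36.7% (34.6 to 38.9%) of the others, and a κB match at 18.6% and 10.1% of their summits.

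Examples of the gaining members include the strongest member without p65 in KOLPS. It lay at chr5:29879984-29880619, 132785 bp from the start of Il6, which encodes the cytokine interleukin-6. Its p65 fold was 31.8 in WTLPS, and SMC1 was absent in WT and KO, with a fold of 16.1 in WTLPS and 5.28 in KOLPS. The strongest member near Tnfsf15, a TNF family cytokine gene, at chr4:63720304-63720778, had a p65 fold of 24.3 in WTLPS and 7.15 in KOLPS, and SMC1 folds of 7.24 and 4.19 there with none before LPS. A member 3563 bp from Slc7a2, which encodes an importer of arginine and other cationic amino acids, had SMC1 in WTLPS alone, at a fold of 5.77.

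The SMC1 summit lay close to the p65 summit. The median distance was 65 bp in WTLPS, with 65.9% of pairs within 100 bp, against 62 bp and 68.5% over all WTLPS p65 peaks. At the members it was 72.0 bp for the WT SMC1 peaks that were there before p65. It was 84.0 bp for WT STAT5 and 51.0 bp for p65 of KOLPS, against 79.0 and 48.0 bp over all WTLPS p65 peaks. Summits of WT H3K27ac were farther away, at a median of 364 bp, as were those of WT CTCF at 245 bp, against 377 and 244 bp.

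**Figure D2:**
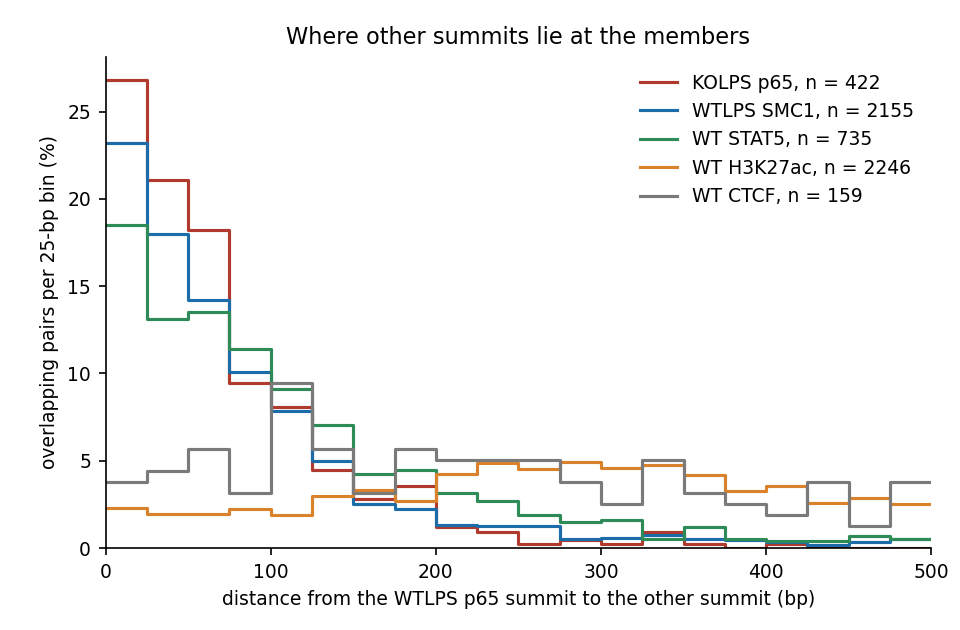
Distance between the WTLPS p65 summit of a member and the nearest summit of another list (x axis, bp, up to 500), for members that a peak of that list overlapped, as the percent of such pairs in each 25-bp bin (y axis). KOLPS p65 and WTLPS SMC1 summits pile up within 100 bp, while WT H3K27ac and WT CTCF summits do not.

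A comparison with other enhancers shows how members differ in SMC1 from distal H3K27ac regions that p65 did not reach. To hold width alike, distal WT H3K27ac peaks of 1000 to 2000 bp were taken. Of the 439 that held a member, the 4 shares with SMC1 were 89.5% (86.3 to 92.1%), 96.6% (94.4 to 97.9%), 84.3% (80.6 to 87.4%) and 80.2% (76.2 to 83.6%). Among the other 4505, which lacked WTLPS p65, SMC1 was listed at 53.7% (52.2 to 55.1%), 47.7% (46.2 to 49.1%), 41.0% (39.6 to 42.5%) and 23.3% (22.1 to 24.6%). With LPS the SMC1 share in CTCF-WT cells was thus higher at enhancers that gained p65 and lower at the others. These sets were split on p65 of WTLPS, which also chose the members. The WTLPS SMC1 list was shorter than that of WT, with 57354 against 63638 peaks. The part of the split and of list length in these shares was not tested. STAT5 in WT lay at 32.1% and 11.8% of the same regions, and CTCF in WT at 13.4% and 11.3%. Median H3K27ac folds were 7.36 and 6.90.

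CTCF, the protein removed in the KO cells, was seldom at the members. In CTCF-WT cells a CTCF peak overlapped 159 members before LPS (7.08%, 6.09 to 8.21%) and 135 after it (6.01%, 5.10 to 7.07%). In CTCF-KO cells it overlapped 33 (1.47%, 1.05 to 2.06%) and 16 (0.712%, 0.439 to 1.15%). The background over all WTLPS p65 peaks was 7.76%, 6.33%, 1.81% and 1.04%. Between WT and KO, 134 members lost CTCF and 8 gained it, a change of -5.61 points (-6.62 to -4.60). The 4 lists held 60537, 54020, 20151 and 11576 CTCF peaks. With each limited to its strongest 11576 peaks, the shares were 1.42% in WT and 1.02% in KO, a change of -0.401 points (-0.738 to -0.0631). That cut left out most WT peaks, so the smaller change is limited by it. WT peaks thinned to the KO coverage would leave 6.57% of members with CTCF if enrichment were equal, which was not tested. The CTCF motif was found in the summit window of 9 members (0.401%, 0.211 to 0.760%). None of those 9 had a WT CTCF peak, and 0 of 159 has an upper limit of 1.89%.

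Members with a WT CTCF peak more often had SMC1 as well. SMC1 lay at 97.5% (93.7 to 99.0%) of the 159 with CTCF and at 83.6% (82.0 to 85.1%) of the 2087 without it in WT. In KOLPS the values were 82.4% (75.7 to 87.5%) and 76.7% (74.9 to 78.5%), and p65 of KOLPS lay at 26.4% (20.2 to 33.8%) and 18.2% (16.6 to 19.9%). WT STAT5 lay at 32.7% of both. Gbp5, an interferon-inducible GTPase gene, had a member with strong CTCF at chr3:142493899-142494229. It overlapped the edge of the annotated gene at 142493978, 2800 bp from the 1 start used for promoters. Its H3K4me3 fold was 4.93, 8.36 and 4.54 in WT, WTLPS and KO, so it may be a promoter. The CTCF fold was 34.4 in WT and 25.2 in WTLPS with no peak in KO or KOLPS. The SMC1 fold was 36.9, 27.2 and 5.70, with no peak in KOLPS. The strongest member within 100 kb of Csf2rb, which encodes the shared beta chain of the GM-CSF receptor, kept CTCF in all conditions at folds of 23.8, 17.6, 4.68 and 6.78.

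STAT5 occupied part of the members in cells without LPS. The labels and the study's methods name different antibodies for it, one of them listed by the study as specific for phosphorylated STAT5, so whether these peaks show total or phosphorylated STAT5 is uncertain. A STAT5 peak overlapped 735 members in WT (32.7%, 30.8 to 34.7%) and 579 in KO (25.8%, 24.0 to 27.6%), against 27% and 21.4% of all WTLPS p65 peaks. At 525 members it was listed in both, at 210 in WT alone and at 54 in KO alone, a change of -6.95 points (-8.33 to -5.56). With equal numbers of peaks the change was -2.45 points (-3.74 to -1.16). The KO library was the deeper here, with 1.70 against 1.33 fragments per base, and its peaks thinned to the WT coverage would leave 25.2% if enrichment were equal, which was not tested. The STAT motif lay at 9.93% of the summits with WT STAT5 and 2.58% of those without it. SMC1 in KOLPS lay at 90.9% (88.6 to 92.8%) of members with WT STAT5 and 70.4% (68.1 to 72.7%) of those without, and p65 in KOLPS at 27.3% (24.2 to 30.7%) and 14.6% (12.9 to 16.5%).

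Among named members, chr9:88952935-88953569, 3538 bp from Bcl2a1a, a survival gene of the BCL2 family, had the highest STAT5 fold of the 10 strongest, at 58.4 in WT and 83.9 in KO. Its p65 fold was 33.4 in WTLPS and 14.9 in KOLPS. The member in the Lims1 intron, shown above with 2 STAT matches, had STAT5 folds of 38.7 and 28.1 and SMC1 folds of 11.1, 15.8, 10.3 and 7.64 in the 4 conditions, yet no p65 in KOLPS. Reads of Bcl2a1a can be shared with its near-identical neighbouring copies, so that site is uncertain. The member near Nfkbia, which encodes the NF-κB inhibitor IκBα, had STAT5 folds of 9.02 and 8.50, and a p65 fold of 11.3 in WTLPS without a peak in KOLPS.

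H3K27ac was present at all members in WT by definition, so its share in the other lists can only be equal or lower. After LPS it was listed at 2046 members in CTCF-WT cells (91.1%, 89.8 to 92.2%). In CTCF-KO cells it was listed at 1904 before LPS (84.8%, 83.2 to 86.2%) and 1836 after it (81.7%, 80.1 to 83.3%). The background over all WTLPS p65 peaks was 64.6% and 75.4% in CTCF-WT and 66.2% and 66.3% in CTCF-KO. The mark was listed in all 4 conditions at 1630 members (72.6%). Between WTLPS and KOLPS, 291 members lost it and 81 gained it, a change of -9.35 points (-11.0 to -7.71). The KO and KOLPS libraries had 0.750 and 0.800 fragments per base against 1.17 and 1.20 in WT and WTLPS. By calculation, WTLPS peaks thinned to the KOLPS coverage would leave 89.9% of members with the mark, beside 81.7% listed. WT peaks thinned to the KO coverage would leave 95.3%, beside 84.8% listed. Both take the enrichment of the immunoprecipitations as equal. The part of depth in these differences was not tested.

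The place of the mark's peak within each list, unlike its presence in WT, was not used to choose the members. The median member H3K27ac peak stood at percentiles 90.4, 95, 91.0 and 92.3 of the 4 lists. Of the 2046 members with the mark in WT and WTLPS, 1297 (63.4%) ranked higher in WTLPS, and the median shift was 1.47 points. Of 1702 with it in KO and KOLPS, 895 (52.6%) ranked higher in KOLPS, with a median shift of 0.148 points. Over all WTLPS p65 peaks the figures were 62.9% and 53.5%. The 4 lists held 83461, 77050, 81404 and 78202 peaks, so a shift in rank is a place within a list and not a measured change in the level of the mark. At the Slco3a1 intron site the H3K27ac folds were 4.60, 15.4, 3.43 and 13.3. At the member nearest Bcl2a1a it was 17.9, 52.3, 18.3 and 19.4.

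H3K4me1 was near complete except in KOLPS. The 4 shares of members were 97.1%, 98.0% (97.4 to 98.5%), 95.6% (94.7 to 96.4%) and 82.8% (81.2 to 84.3%). Over all WTLPS p65 peaks the background was 89.1%, 90.6%, 86.6% and 71.4%. From KO to KOLPS 314 members lost H3K4me1 and 26 gained it, a change of -12.8 points (-14.3 to -11.3), and from WT to WTLPS 10 lost and 32 gained it, a change of 0.980 points (0.415 to 1.54). These changes were -15.1 and 1.5 points over all WTLPS p65 peaks. The KOLPS list was the shortest, with 79120 peaks against 89884 to 94694, and its member peaks were narrower, with a median of 5061 bp against 8440.0 to 11032 bp. The coverage of these broad lists could not be recovered, and its part in the lower share was not tested. Peak names in these lists carry another supplier's mark than the antibody in the labels, so the antibody is uncertain. A KOLPS p65 peak lay at 17.9% (16.2 to 19.7%) of members with KOLPS H3K4me1 and 23.0% (19.1 to 27.4%) of those without it.

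H3K4me3, a promoter mark, overlapped 18.4% (16.8 to 20.0%), 14.6% (13.2 to 16.1%), 16.6% (15.1 to 18.2%) and 8.90% (7.80 to 10.2%) of members in the 4 conditions. The background was 21.5%, 18.4%, 20.0% and 14.2% of all WTLPS p65 peaks. Promoters were taken at 1 start per gene. With promoters at all transcript starts 2040 members were left, and the share was 15.7% in WT and 6.76% in KOLPS. The repressive mark H3K27me3 lay at 8, 2, 3 and 0 members, and the count of 0 has an upper limit of 0.134%.

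The 741 members with −log10 q of at least 10 had peaks of several other lists more often. SMC1 was listed at 99.2% of them in WTLPS and 82.7% in KOLPS. STAT5 lay at 36.6% in WT and 29.1% in KO. H3K27ac lay at 95.3% in WTLPS, 87.0% in KO and 87.9% in KOLPS. For H3K4me3 the 4 shares were 16.3% (13.8 to 19.2%), 14.8%, 14.2% (11.8 to 16.9%) and 8.77%. Over all members they were 18.4%, 14.6%, 16.6% and 8.90%, and the WT and KO intervals include these values. No such shares are given for equally strong p65 peaks that were not members.

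In CTCF-KO cells p65 was listed at a minority of the members after LPS. A KOLPS p65 peak overlapped 422 of them (18.8%, 17.2 to 20.5%), and a KO p65 peak 52 (2.32%, 1.77 to 3.02%). Over all WTLPS p65 peaks the shares were 22.7% and 7.61%. At the LPS-acetylated sites KOLPS p65 lay at 14.3% (11.9 to 17.1%) and at the sites without H3K27ac at 8.34% (6.73 to 10.3%). By calculation, 98.6% of members exceeded the lowest −log10 p of that list, and 96.5% would still do so after thinning from 0.860 to 0.820 fragments per base. This calculation takes the enrichment of the immunoprecipitations as equal, which was not tested. The members were p65 peaks of WTLPS by choice, so a share below 100.0% in any other list is in part given by that choice. Among the members 379 had p65 in KOLPS but not in KO, and 9 the reverse.

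**Figure D3:**
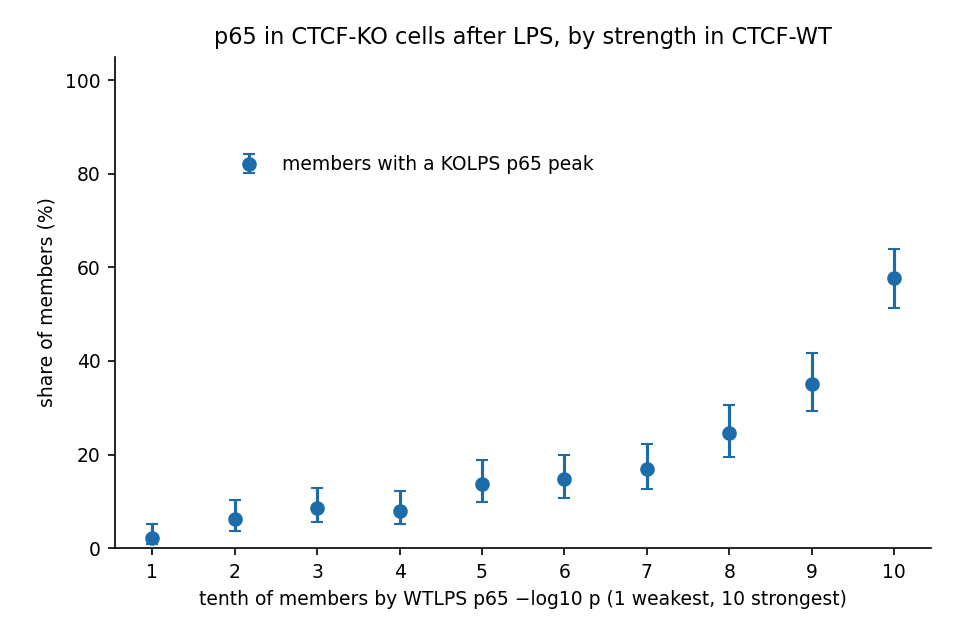
Share of members with a KOLPS p65 peak (y axis, percent, circles with 95% Wilson intervals) in 10 groups of 224 or 225 members ordered by WTLPS p65 −log10 p (x axis). The share rises from 2.23% in the weakest group to 57.8% in the strongest.

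The p65 share in KOLPS followed the strength of the WTLPS peak. In 10 groups ordered by −log10 p it was 2.23% (0.957 to 5.12%) in the weakest, 13.8% (9.88 to 18.9%) in the fifth and 57.8% (51.2 to 64.0%) in the strongest. It was 37.7% (34.2 to 41.2%) of the 741 members with −log10 q of at least 10. All of the 10 members with the highest −log10 q had a KOLPS p65 peak. The strongest, chr16:24669620-24670339 in an intron of Lpp, which encodes a LIM protein of focal adhesions, had a p65 fold of 48.5 in WTLPS and 12.7 in KOLPS. Another in the same gene had 48.0 and 14.3, and also a KO peak of 8.80. The Slco3a1 member, in a gene for an organic anion transporter, had 37.7 and 16.5, and the member 40082 bp from Tet2, which encodes a DNA demethylase, had 32.9 and 6.60.

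Where both lists had a peak, the fold was lower in KOLPS at 297 of 422 members, with a median of 7.71 against 10.2 in WTLPS. The WTLPS list chose the members, so a higher fold there is in part given by that choice. By place within each list, 23.2% of the 422 ranked higher in KOLPS, against 23.3% of 1242 over all WTLPS p65 peaks. The 422 members took 421 of the 1752 KOLPS p65 peaks (24.0%).

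Members with p65 in KOLPS differed from the 1824 without it in several lists that the rule did not use. SMC1 lay at 94.3% of them in WT and 94.8% in KOLPS, against 82.3% and 73.0% of those without p65. H3K27ac in KOLPS lay at 93.8% and 78.9%, and WT STAT5 at 47.6% and 29.3%. Stronger peaks are called more often in any list, so the split was repeated within the strongest 20% of members, where the median p65 fold was 12.9 with and 12.4 without KOLPS SMC1. With KOLPS SMC1, 51.7% (46.7 to 56.7%) of 377 such members had KOLPS p65, and without it 19.2% (11.8 to 29.7%) of 73. With WT SMC1 the shares were 50.4% (45.4 to 55.3%) and 21.3% (12.9 to 33.1%), and with and without WT STAT5 55.7% (48.3 to 62.8%) and 40.5% (34.9 to 46.4%). For the κB motif the shares were 43.8% (32.3 to 55.9%) with and 46.9% (42.0 to 51.9%) without it. The order was the other way among the other 80% of members, at 15.6% (11.2 to 21.4%) with and 11.4% (9.94 to 13.1%) without it. Over all members the shares were 22.7% (18.0 to 28.2%) and 18.3% (16.7 to 20.1%). The intervals overlapped in each of these comparisons.

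SMC1 and H3K27ac were also listed in KOLPS at many members without p65 there. Over all WTLPS p65 peaks, SMC1 of KOLPS lay at 65.2% and H3K27ac of KOLPS at 66.3%, each taken alone. Their joint share was not calculated over all those peaks, and members were chosen for H3K27ac in WT. Of the 1824 members without KOLPS p65, 1114 (61.1%) had both SMC1 and H3K27ac in KOLPS. One such site was the member 92748 bp from Il6, shown above with its κB match. Its p65 fold was 15.1 in WTLPS, its SMC1 folds were 5.0, 11.4, 3.79 and 6.37, and its H3K27ac folds 9.66, 17.3, 8.01 and 10.6. The Nfkb1 intron site, in the gene of the p105 and p50 subunit, had a p65 fold of 16.7 in WTLPS and none in KOLPS, SMC1 in WTLPS (7.98) and KOLPS (4.57) only, and H3K27ac in all 4 conditions at folds of 7.82 to 15.0.

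The κB consensus lay in the 101-bp summit window of 11.4% (10.1 to 12.8%) of members, against 13.4% of all WTLPS p65 summits, 1.22% (0.942 to 1.59%) of windows 1 kb to either side of the members and 0.963% (0.887 to 1.05%) of distal WT H3K27ac summits without WTLPS p65. Among members TGANTCA (AP-1) lay at 12.1% (10.8 to 13.5%), TTGCNNAA (C/EBP) at 11.7% (10.4 to 13.1%), GAGGAAGT (an ETS sequence of the kind PU.1 prefers) at 4.27% (3.51 to 5.19%), TTCNNNGAA (STAT) at 4.99% (4.16 to 5.97%) and the IRF motif at 2.63% (2.04 to 3.37%). The shares over all WTLPS p65 summits were 11.2%, 13.2%, 4.19%, 4.87% and 2.53%, and for the CTCF motif 0.311%. Windows 1 kb away held AP-1 at 3.05%, C/EBP at 4.61% and ETS at 0.957%, while STAT at 3.81% was nearer to the summits' value. Both strands were searched and motifs were allowed to overlap. A match is a description of the letters and shows no binding by itself.

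The κB matches at members took 62 different sequences. The most frequent was GGGAATTTCC, at 26 members, followed by GGGAAATTCC at 17. Their median distance from the summit was 22.5 bp, and 56.1% lay within 25 bp. The share of members with a match rose with strength from 7.59% in the weakest of the 10 groups to 15.1% in the strongest. With 1 mismatch allowed it was 39.7% over all members.

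**Figure D4:**
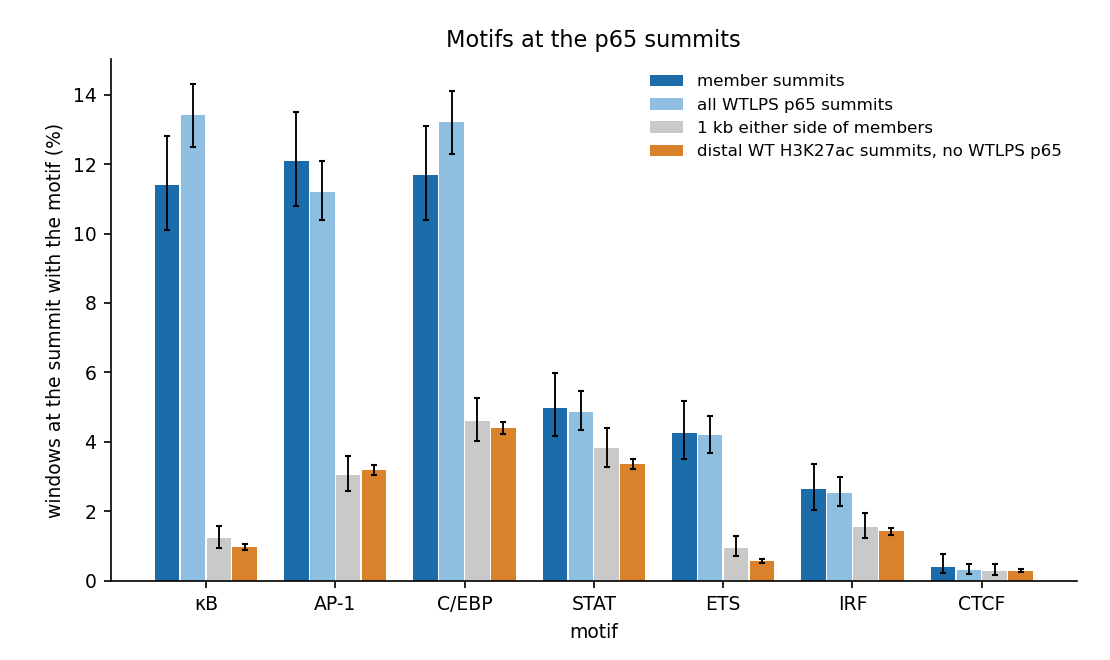
Percent of 101-bp windows (y axis) with each motif (x axis), with 95% Wilson intervals, at the 2246 member summits, all 5465 WTLPS p65 summits, windows 1 kb to either side of the members, and distal WT H3K27ac summits without WTLPS p65. The κB share is 11.4% at members and 1.22% at 1 kb; the CTCF share is under 1% in each set.

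Members lay mostly in introns and between genes. Of the 2246, 1172 (52.2%, 50.1 to 54.2%) had their summit in an intron, 988 (44.0%, 41.9 to 46.1%) outside genes and 86 (3.83%, 3.11 to 4.70%) in an exon. The median distance to the nearest protein-coding gene start was 30612 bp, with quartiles of 11374 and 73861 bp. A total of 1412 different genes were nearest to a member, and 77.8% (75.5 to 79.9%) of their starts had an H3K4me3 peak in WT, against 56.7% of all protein-coding starts. A WTLPS p65 peak at the start was found for 12.1% (10.5 to 13.9%) of these genes and 2.86% of all.

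Within 100 kb of a member lay the starts of 3585 of 21938 protein-coding genes, a background of 16.3% for the gene lists. The chemokine and receptor list led, with 18 of 21 genes (85.7%, 65.4 to 95.0%) near 79 members. Next were costimulation and antigen presentation with 15 of 20 (75%, 53.1 to 88.8%), transcription factors of myeloid and dendritic cells with 21 of 29 (72.4%, 54.3 to 85.3%) and GM-CSF and STAT5 targets with 10 of 14 (71.4%, 45.4 to 88.3%). NF-κB feedback and subunit genes had 11 of 17 (64.7%, 41.3 to 82.7%), Toll-like receptor signalling 12 of 21 (57.1%, 36.5 to 75.5%) and cytokines 13 of 23 (56.5%, 36.8 to 74.4%). LPS-induced enzymes had 5 of 14 (35.7%, 16.3 to 61.2%) and interferon-stimulated genes 5 of 16 (31.2%, 14.2 to 55.6%), both with intervals that reach the background. Of 20 genes of other tissues, 1 (Apoa1) had a member within 100 kb. Neighbouring genes share members, so genes of a cluster do not count separately. The background is all protein-coding genes, and no share of genes near any WTLPS p65 peak is given. Nearness to these lists is thus not shown to be particular to the members.

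**Figure D5:**
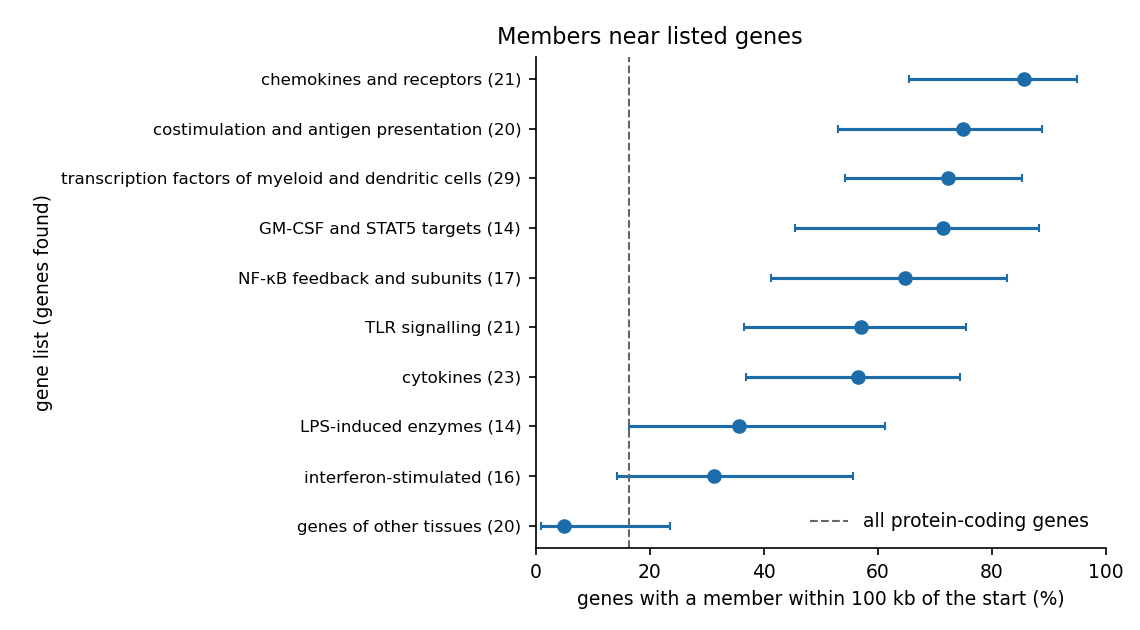
Percent of each gene list (y axis, number of genes found in parentheses) with a member within 100 kb of the gene start (x axis), with 95% Wilson intervals. The dashed line is the 16.3% of all protein-coding genes; chemokines and receptors stand at 85.7% and genes of other tissues at 5.0%.

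Among NF-κB regulators, Tnfaip3, which encodes the deubiquitinating feedback inhibitor A20, had 6 members within 100 kb, of which 1 had p65 in KOLPS. Its strongest member, chr10:19077656-19078659, 62912 bp from the start, had p65 folds of 17.2 and 12.1 in WTLPS and KOLPS and SMC1 folds of 7.18, 15.1, 7.42 and 9.28. Tnip1, a partner of A20, had 5 members, Nfkbia and Nfkb1 had 4 each and Rel had 3. None of the members near Nfkbia or Nfkb1 had p65 in KOLPS. Over all members that share was 18.8%, and over all WTLPS p65 peaks 22.7%. With so few members a gene, the KOLPS p65 counts here and below do not set a gene apart.

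Among cytokine genes, Il6 had 6 members and Il12b, which encodes the p40 subunit of interleukin-12, had 4. None of these had p65 in KOLPS, against 18.8% of all members and 22.7% of all WTLPS p65 peaks. SMC1 in KOLPS lay at 4 of the 6 and at 4 of the 4. The strongest member of Il12b, 17634 bp from its start, had a p65 fold of 11.3 and SMC1 folds of 6.25, 12.1, 7.57 and 11.8, and H3K27ac in WT, WTLPS and KOLPS at 5.06, 16.8 and 6.66 with no peak in KO. The strongest member of Il12a, the p35 subunit gene, lay 57983 bp away, with a p65 fold of 16.2 and none in KOLPS, and SMC1 folds of 6.71, 12.4, 6.31 and 7.10. Il1a, Il1b, Il10 and Il23a had no member within 100 kb, but had 9, 10, 3 and 3 WTLPS p65 peaks of any class there.

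Among chemokine genes, Cxcl3 had 8 members and Ccl3, Ccl22, Cxcl5 and the receptor gene Ccr1 had 6 each. At Ccl3, which encodes an inflammatory chemokine, 3 of the 6 had p65 in KOLPS, and the strongest had p65 folds of 18.9 and 9.91, SMC1 folds of 5.93, 12.6, 5.52 and 7.83 and H3K27ac folds of 10.1, 29.1, 14.3 and 20.5. At Ccl22 and Ccl17, chemokine genes of mature dendritic cells, 0 of 6 and 0 of 5 had p65 in KOLPS, against 18.8% of all members and 22.7% of all WTLPS p65 peaks. The strongest Ccl22 member had H3K27ac folds of 10.1, 30.5, 7.26 and 9.44. At Ccr1, 4 of the 6 members had WT STAT5 and 6 of 6 had SMC1 in WT and in KOLPS.

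Tnfsf15 had the most members of any protein-coding gene, 11 within 100 kb, followed by Klf6 with 10, a zinc-finger factor gene of activated myeloid cells. Of these, 2 each had p65 in KOLPS. Cd80, which encodes a costimulatory ligand of T cells, had 7 members, and Ciita, the master regulator gene of MHC class II, had 5, with 3 in KOLPS. Among Toll-like receptor signalling genes Irak2 had 5 members and none with p65 in KOLPS, and its strongest, 6587 bp from the start, had H3K27ac folds of 7.82, 20.5, 8.58 and 17.8. Among transcription factor genes Cebpb, Fosl2, Bhlhe40 and Nfil3 had 3 each.

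Some members near genes of the GM-CSF pathway had a STAT5 peak in the lists without LPS. Of 3 members near Socs3, a feedback inhibitor of JAK signalling, 2 had WT STAT5 and 2 had p65 in KOLPS. Jak2 had 5 members, 2 with WT STAT5 and none with p65 in KOLPS. The strongest member near Ccnd2, which encodes cyclin D2, had STAT5 folds of 15.5 and 9.98, p65 folds of 17.2 and 6.05 in WTLPS and KOLPS, and an H3K27ac fold of 3.68 in WT and 21.5 in WTLPS.

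Among the LPS-induced enzyme genes Ch25h, which encodes cholesterol 25-hydroxylase, had 5 members and Acod1, which makes itaconate, had 2, none with p65 in KOLPS. Nos2, the inducible nitric oxide synthase gene, had 1, shown above. It had a p65 fold of 6.47, a κB match and no SMC1 in any condition, with H3K27ac folds of 6.90, 6.83, 5.72 and 7.22.

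Some members lay close together. Members shared a WT H3K27ac peak with another member in 352 cases (15.7%), and joined at gaps of up to 12.5 kb they formed 340 clusters of 2 or more, of which 23 had 4 or more. The largest, 7 members over 27817 bp at Asap1, an Arf GTPase-activating protein gene, had SMC1 at all 7 in WT, WTLPS and KOLPS and p65 in KOLPS at 1. At Lcp1, which encodes the actin-bundling protein L-plastin, 6 members spanned 20898 bp, none with p65 in KOLPS and 4 with SMC1 there. The strongest member near Lcp1 had H3K4me3 folds of 48.9, 43.2, 44.1 and 33.9 in the 4 conditions. Of 4 members at Cflar, which encodes the caspase-8 inhibitor c-FLIP, 2 had p65 in KOLPS and all had SMC1 in WT, WTLPS and KOLPS.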

How the data were processed

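Chromatin immunoprecipitation and tagmentation gave 30 peak lists for 34 samples, and the 4 inputs have none. Per the submitters' processing notes, reads were mapped to mm10 with BWA 0.7.12, duplicates were handled with Picard 1.77 and peaks called with MACS2 2.1.2, and the notes also name deepTools 3.1.3. The study's methods describe peak calling per sample and replicate and also a merging of replicates, so whether a deposited list pools them is uncertain. The deposited columns used were the fold enrichment over background, the −log10 p and −log10 q values as the authors' peak caller wrote them, and the summit offset.

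Peaks shared a site when they overlapped by at least 1 bp. Genes and starts came from GENCODE M21, with the longest transcript per gene. Coverage was recovered by matching deposited fold and −log10 p to whole pileups, and thinning lowered pileups to another list's coverage. Tools were Python 3.11.15, numpy 2.4.6, pandas 2.3.3, scipy 1.17.1 and matplotlib 3.10.9. The scripts were checked on simulated data. Members and lists were chosen with earlier results of these data known. Named members were the 10 of highest −log10 q, the 5 highest with and the 5 without KOLPS p65, the 5 highest that gained SMC1, the strongest near up to 5 genes of each list, and the strongest near the 5 genes with most members. Genes not chosen this way are named for their counts within a list. Alternatives changed the overlap, thresholds, list lengths, promoters, neighbouring peaks, motif window and gene distance. One marker gene is not reported here.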

Additional observations from a re-analysis of the deposited data

Results flagged for a closer look

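The SMC1 share at the members moved in opposite directions with LPS in the 2 genotypes, by 11.4 points (9.99 to 12.7) in CTCF-WT cells and by -3.21 points (-4.82 to -1.59) in CTCF-KO cells. Over all WTLPS p65 peaks the changes were 15.6 and -1.67 points. Over the p65 peaks that were not members they were 18.6 and -0.590 (-1.94 to 0.764) points. With 1 list per condition the difference was not tested. KO peaks thinned to the KOLPS coverage would leave 76.3% of members with SMC1, beside 77.1% listed, if enrichment were equal, which was not tested, and with equal numbers of peaks the KO change was 6.59 points.

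The H3K4me1 share moved by 0.980 points (0.415 to 1.54) in CTCF-WT cells and by -12.8 points (-14.3 to -11.3) in CTCF-KO cells, against 1.5 and -15.1 points over all WTLPS p65 peaks, and this difference was not tested either. The KOLPS list was the shortest H3K4me1 list, with 79120 peaks.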

How the results depend on the processing

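Of 78 recomputed values of the main results, 42 stayed within their counting interval or within 1.5 times a count, 35 moved and 1 reversed. The KOLPS p65 share (18.8%) was 12.8% when a peak had to cover 50% of the member, 17.0% when it had to hold the summit and 14.5% with a stricter threshold. It was 4.32% with equal numbers of peaks and 37.7% for members with −log10 q of at least 10. For members among the strongest WTLPS peaks, as many as in KOLPS, it was 40.3%, an alternative chosen after seeing the data. Equal numbers cut each p65 list to 504 peaks, the length of the KO list, while all 2246 members were kept. The 4.32% is thus limited by that cut and does not compare WTLPS and KOLPS at equal length. In the same order, the SMC1 change with LPS in CTCF-WT (11.4 points) was 13.2, 12.7, 14.7, 21.1 and, for −log10 q of at least 10, 13.9 points. The SMC1 difference of KOLPS from WTLPS (-18.8) was -22.1, -21.3, -29.6, 20.3 with equal numbers, which reversed it, -16.5 and, for the strongest peaks, -16.2. Equal numbers also reversed the SMC1 change with LPS in CTCF-KO, from -3.21 to 6.59, as did −log10 q of at least 10, to 1.89 (-0.616 to 4.39). The cause was not tested.

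The H3K27ac difference of KOLPS from WTLPS (-9.35) was -23.3 by cover, -22.0 by summit, -16.1 by stricter threshold and -7.42 at −log10 q of at least 10. The CTCF change in KO (-5.61) was -3.92 by cover, -3.52 by summit and -0.401 with equal numbers. Equal numbers cut each CTCF list to 11576 peaks, which limits that last value. The STAT5 change (-6.95) was -4.67 by stricter threshold and -2.45 with equal numbers. The H3K4me1 difference (-15.3) was -18.6, -18.7 and -28.3 by cover, summit and stricter threshold. A −log10 q of at least 10 left 741 members and 1500 genes within 100 kb in place of 3585. Within 50 kb there were 1972 genes, and 1412 were nearest. The κB share (11.4%) was 13.8% at −log10 q of at least 10, 18.6% within 100 bp of the summit and 39.7% with 1 mismatch. Without the members that had WT H3K4me3, also chosen after seeing the data, the KOLPS p65 share was 18.3%. No paired analysis was possible because each condition had 1 list per antibody. Depth limits calls of weak peaks, and the coverage of the H3K4me1 lists is unknown.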
